A study of Saccharomyces cerevisiae with 26 samples.

Results

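The genes described here encode the tRNA modification enzymes of budding yeast that carry a TRM, PUS, DUS or TAD name, followed across the yeast metabolic cycle in wild type cells and in cells with a TAF14[W81A] substitution. They were taken by gene name alone, as every gene of the deposited RNA table whose name is TRM, PUS, DUS or TAD followed by digits only. That rule gave 28 genes of 6008, made up of 15 TRM, 7 PUS, 3 DUS and 3 TAD genes. The rule reads names only, but the set was chosen with earlier results of these data known. The strain was CEN.PK, a laboratory background that cycles metabolically in continuous culture, and the mutant was CEN.PK TAF14[W81A], labelled with no other allele and no added agent. Taf14 is a subunit of several transcription and chromatin complexes, and its YEATS domain, which the substitution alters, reads acylated histone lysines. RNA was sequenced at 5 time points of each genotype. By the submitters' labels, OX (the oxidative, growth phase) was sampled early at time point 1 and late at 2, RB (the reductive, building phase) early at 3 and late at 4, and RC (the reductive, charging phase) at 5. Each genotype and time point had 2 RNA libraries, which gives 20 libraries in all. The labels do not say whether the mutant is 1 clone or whether the libraries of a group came from separate cultures, so p-values measure only the spread between these samples, which may be technical.

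tRNAs are modified after transcription at many positions, and each TRM, PUS, DUS or TAD product acts at 1 or a few of them. Most TRM genes encode tRNA methyltransferases or their partner subunits. PUS genes encode pseudouridine synthases, DUS genes dihydrouridine synthases and TAD genes adenosine deaminases that make inosine. Modifications near the anticodon affect decoding, and those in the body of the tRNA affect folding and stability. In cycling yeast, genes for ribosome assembly and translation are known to peak in OX. The names do not make a uniform class: TRM82, TRM112 and TRM732 are partner subunits of methyltransferases. TRM12 is an enzyme of wybutosine synthesis and not a methyltransferase, and PUS5 acts on the mitochondrial large ribosomal RNA.

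The deposited RNA table gives 1 log2 level per group, a length-scaled mean of both libraries. Because whole reads lie behind those levels, the reads of each library could be recovered for all 28 genes in all 10 groups. Each group gave a unique pair of whole numbers within the bounds stated under processing. Recovered reads summed to between 2043342 and 3769122 per library over 5436 genes, and the 28 genes had between 14 and 3126 reads in a library. Values below are scaled reads, the recovered reads times the authors' own library scaling. They are not divided by gene length and are compared only between samples of the same gene. Both libraries are given for each group; the recovered numbers 1 and 2 do not say which was labelled A or B. Over all genes the wild type libraries of time point 1 differed most from each other, with a median SD of 0.12 on the log2 scale against 0.05 to 0.09 in the other 9 groups, and library 2 read higher for 26 of the 28 genes there. Over the 28 genes that median SD was 0.16 both there and at mutant time point 4. At wild type time point 3 it was 0.14 over the 28 genes, against 0.07 over all genes. Library 2 also read higher for 24 of the 28 genes at mutant time point 1, and lower for 20 at mutant time point 3 and 21 at mutant time point 4. RNA was from whole cultures, so fewer cells making a transcript and less of it per cell cannot be told apart.

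The genes are spread over the genome (RefSeq R64, the sacCer3 build). TRM11 (chromosome XV, 85456 to 86757) and TRM13 (chromosome XV, 83834 to 85264) lie 191 bp apart, the closest pair in the set, and DUS3 (chromosome XII, 922442 to 924448) lies 5340 bp from DUS4 (chromosome XII, 929789 to 930892). TAD3 (chromosome XII, 765266 to 766358) is the only member whose span overlaps another gene, by 4 bp with NKP2. Its reads were whole at a length of 969 bases, shorter than its span of 1093 bp. The library kit was directional, but the strand setting used in counting is not given in the sources used here.

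In wild type cells nearly all of these genes peaked together in early OX. Time point 1 held the highest mean for 25 of the 28 genes, against 38.9% of all genes tested, and for 24 of them both libraries there lay above every library of the other time points, as they did for 33.4% of the 5436 genes whose reads could be recovered. The lowest mean fell in early RB for 13 genes and in late RB for 11. The median distance between a gene's highest and lowest time point was 3.01 on the log2 scale, against 1.30 over all genes. A limma test across the 5 wild type time points called 27 of the 28 genes at an adjusted p under 0.05, beside 93.6% of all 5877 genes tested, so that share says little about these genes in particular. PUS2 was the gene not called.

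**Figure D1:**
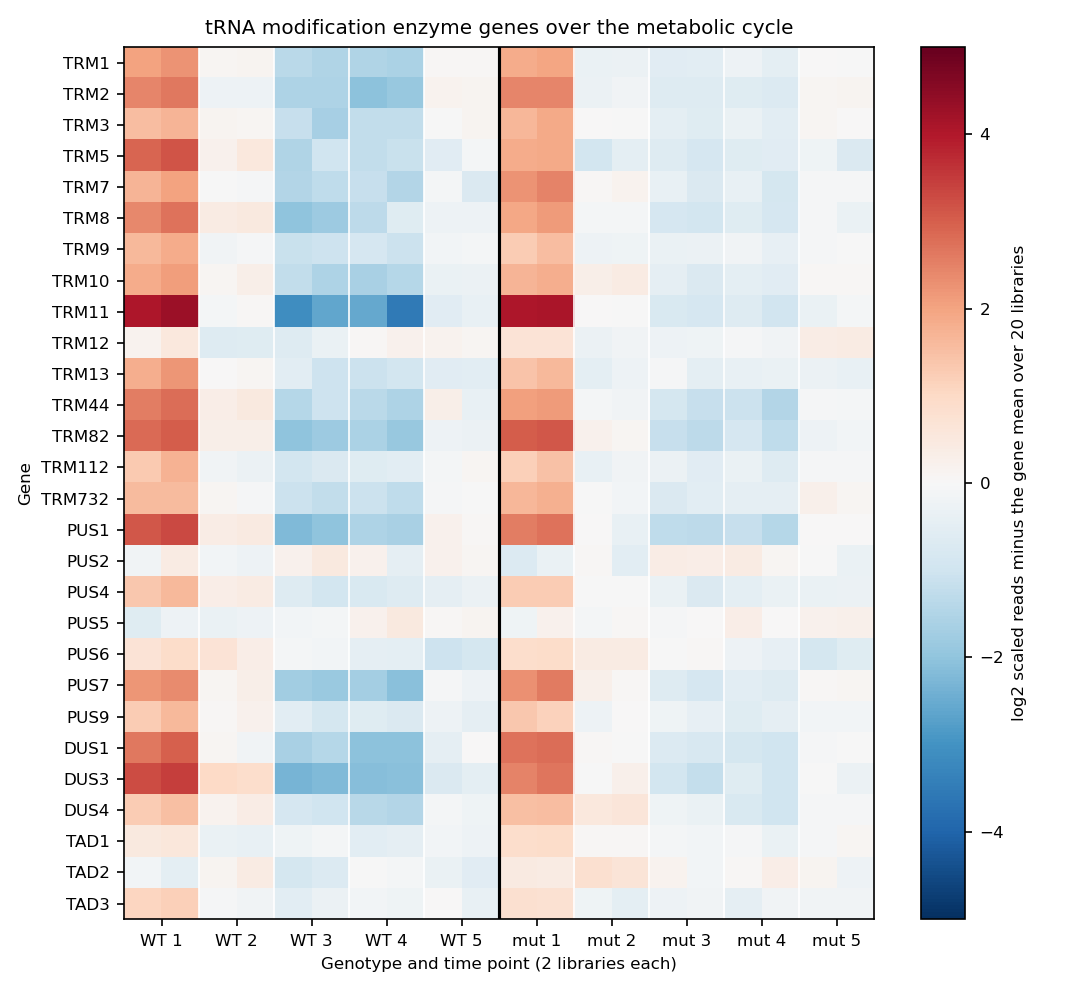
Scaled reads of the 28 genes (rows) in the 20 libraries (columns, paired by group, wild type on the left and mutant on the right), as log2 minus the gene's mean over all libraries. Time point 1 is the highest in 25 of 28 genes in each genotype, and the blue of wild type time points 3 and 4 is paler in the mutant for most rows.

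The 3 genes with the smallest p in the wild type time test were TRM2, TRM1 and PUS1. TRM2, which makes the 5-methyluridine of the T loop, had 2072 and 2341 scaled reads in the libraries of time point 1, 319 and 319 at 2, 128 and 130.2 at 3, 90.5 and 101 at 4 and 431 and 409 at 5. Each time point stood clear of its neighbours, with a 22.8-fold distance from the highest mean to the lowest (limma adjusted p = 1.63e-16). TRM1, which makes N2,N2-dimethylguanosine, had 1903 and 2232 at time point 1, 509 and 514 at 2, 185 and 169 at 3, 168 and 157 at 4 and 495 and 489 at 5. Late OX and RC overlapped nowhere with RB, and early and late RB differed by -0.12 ± 0.09 (SE) on the log2 scale (limma adjusted p = 0.273), which did not pass the threshold. PUS1, a pseudouridine synthase with many tRNA sites, had 1882 and 2155 at time point 1, 285 and 296 at 2, 47.9 and 54.7 at 3, 74.5 and 71.5 at 4 and 252 and 229 at 5. Its trough was at time point 3, 38.6-fold below its peak.

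The widest swing belonged to TRM11, the methyltransferase that makes N2-methylguanosine together with TRM112. Its wild type libraries had 3020 and 3526 scaled reads at time point 1, 172 and 193 at 2, 21.3 and 30.8 at 3, 31.1 and 16.0 at 4 and 124 and 142 at 5. The means spanned 7.13 on the log2 scale (139.6-fold), and late RB against late OX did not overlap. DUS3, a dihydrouridine synthase of the variable region, had 1133 and 1313 at time point 1, 237 and 220.0 at 2, 23.9 and 25.8 at 3, 27.4 and 27.8 at 4 and 71.1 and 85.1 at 5. Its distance from peak to trough was 47.2-fold. TRM5, which makes 1-methylguanosine beside the anticodon, had 431 and 509.7 at time point 1, 66.8 and 82.5 at 2, 20.4 and 28.8 at 3, 24.5 and 26.7 at 4 and 39.0 and 54.5 at 5. From late RB to RC the log2 rise was 2.52 for TRM11, 1.46 for DUS3 and 0.83 for TRM5.

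The other TRM genes differed more in depth than in timing. TRM82 and TRM8, which together make 7-methylguanosine, spanned 28.2-fold and 21.9-fold between their highest and lowest means. TRM44, a 2'-O-methyluridine methyltransferase, spanned 17.0-fold and TRM10, which makes 1-methylguanosine, 11.0-fold. TRM7, a 2'-O-methyltransferase of the anticodon loop, spanned 9.25-fold, TRM3, a 2'-O-methylguanosine methyltransferase of the D loop, 8.16-fold, and TRM13, a 2'-O-methyltransferase of the acceptor stem, 7.92-fold. TRM9, which completes the wobble uridine side chain, spanned 6.88-fold, and the partner genes TRM732 and TRM112 spanned 6.66-fold and 4.98-fold. TRM12, an enzyme of wybutosine synthesis, was the TRM gene that did not follow this course. Its libraries had 481 and 618 at time point 1, 270.0 and 277 at 2, 271 and 339 at 3, 447 and 495 at 4 and 479 and 449 at 5, so early OX overlapped with late RB, and its lowest mean was in late OX.

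Among pseudouridine synthase genes, PUS7, which acts on tRNA and U2 snRNA, spanned 17.9-fold, PUS4, the T-loop enzyme, 4.79-fold, and PUS9, the mitochondrial tRNA enzyme, 4.39-fold. PUS6 was lowest in RC, with 109 and 108 at time point 4 and 73.1 and 82.4 at time point 5. The dihydrouridine synthase genes DUS1 and DUS4 spanned 28.9-fold and 6.97-fold. The deaminase genes had shallow profiles: TAD1, which makes the inosine next to the anticodon of tRNA-Ala, spanned 2.00-fold, TAD3 2.86-fold and TAD2 2.06-fold. The 3 genes with the largest p in the wild type time test were PUS2, PUS5 and TAD2. PUS2, a mitochondrial tRNA enzyme and paralog of PUS1, had 22.2 and 33.2 at time point 1, 22.6 and 20.6 at 2, 29.3 and 34.8 at 3, 29.2 and 18.1 at 4 and 29.2 and 26.6 at 5 (limma adjusted p = 0.339). PUS2 had few reads in every library, and a difference between time points of the size of the library spread was not detectable at this depth. PUS5 went the other way, with 67.8 and 87.7 at time point 1, 83.4 and 87.4 at 2, 94.0 and 96.4 at 3, 121 and 146 at 4 and 109 and 114 at 5. Both late RB libraries lay above all the others, and RB against OX rose by 0.47 ± 0.11 (SE) on the log2 scale (limma adjusted p = 0.000974).

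Step by step through the wild type cycle, the genes fell after early OX and rose again on leaving RB. From time point 1 to 2, 25 genes fell and 1 (TAD2) rose, beside 74.9% of all genes called, 40.1% lower and 34.7% higher; the members' median change was -1.81 on the log2 scale against -0.06 over all genes. The TAD2 rise (0.59) was not called without library 2 of time point 1 (0.40) or library 2 of time point 2 (0.46). The PUS6 fall was lost without any 1 of 12 libraries, at values from -0.30 to -0.12. From 2 to 3 another fall was called for 23 genes and a rise for 0, with 66% of all genes called, 33.8% higher and 32.2% lower; the median was -1.24. Early to late RB gave 5 rises and 5 falls, near the background of 42.7%, of which 22.9% was higher and 19.8% lower, with a median of 0.04. Leaving out library 2 of wild type time point 3 left 6 calls at that step. From 4 to 5, 21 genes rose and 1 (PUS6) fell, beside 61% of all genes called and 31.7% higher, with a median of 0.87. From 5 to 1, 24 genes rose and 1 (PUS5) fell, beside 79.4% called and 40.5% higher, with a median of 1.96. The PUS5 fall (-0.53) was not called without library 1 of time point 1 (-0.35).

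Taken as phases, RB (time points 3 and 4) against OX (1 and 2) gave a median log2 change of -2.09 for the 28 genes in wild type, against 0.03 over all genes. Of the 28, 25 fell and 1 (PUS5) rose, beside 84.7% of all genes called, 41% lower and 43.6% higher. TAD2 (-0.40) was no longer called without library 1 of wild type time point 1 (-0.30) or library 2 of time point 2 (-0.33), and the other 25 calls held without each library. Without time point 1, so that OX was time point 2 alone, 25 genes were called. TAD1 (0.02, limma adjusted p = 0.872) and TAD3 (-0.17, limma adjusted p = 0.315) were then not called, and TRM12, not called with both OX time points, was higher in RB (0.47, limma adjusted p = 7.52e-06). The 15 TRM genes had a median of -2.50 with 14 called lower, the 7 PUS genes -1.47 with 5 lower and 1 higher, the 3 DUS genes -3.17 and the 3 TAD genes -0.41, both of the last with all 3 lower. In the mutant the median over the 28 genes was -1.31. There 26 genes fell and 1 (PUS2) rose, beside 82% of all genes called, 40% lower and 42% higher. Without time point 1 the mutant calls dropped to 18. The share of all genes called without time point 1 is not given here for either genotype. TRM1, TRM5, TRM9, TRM12, TRM13, TRM112, PUS2, TAD1 and TAD3 were not called then, and TRM5 (0.03), TAD3 (0.08), TRM12 (0.07) and TRM13 (0.06) stood just above 0. The test across the 5 mutant time points called 27 genes, all but PUS5, beside 91.5% of all genes.

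The change from OX to RB was smaller in the mutant for most of these genes. The difference of the changes (mutant minus wild type) had a median of 0.72 on the log2 scale, against 0.00 over all genes, and 24 of 28 values were above 0. The test of that difference called 19 genes higher and 1 lower, beside 46.4% of all genes called and 25.8% called higher. All 20 calls held without each library in turn. Without time point 1, DUS4 (0.30, limma adjusted p = 0.0855) was not called and TRM7 was (0.59, limma adjusted p = 0.0266). With voom precision weights, which allow for the larger counting noise of low reads, 19 genes were again called higher and 1 lower. In that fit 2480 of 5436 genes were called in either direction. A test of any difference in the course over the 5 time points called 19 of 28 genes, beside 47.4% of all genes.

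**Figure D2:**
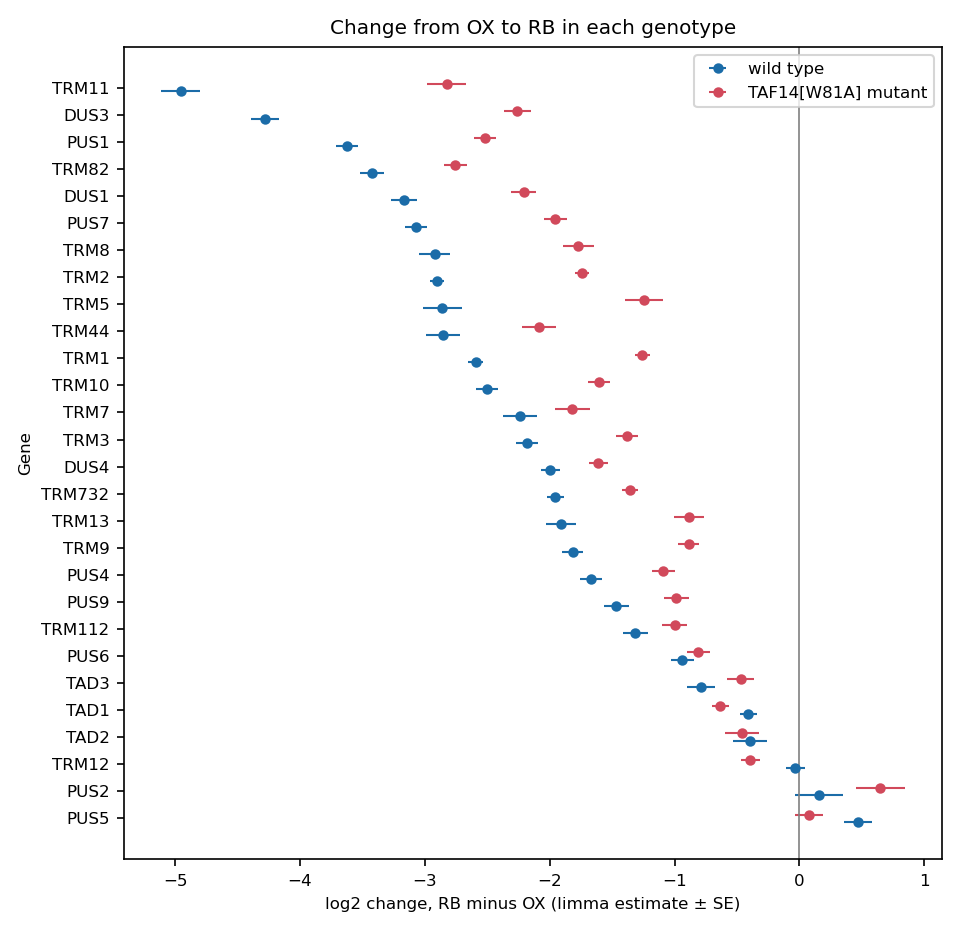
log2 change from OX to RB for each gene (limma estimate, bars ± SE), ordered by the wild type value, wild type in blue and mutant in red. TRM11 lies at -4.95 in wild type and -2.82 in the mutant, and the blue and red points come close for TAD2 and PUS6.

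By the size of the difference the leading genes were TRM11, DUS3 and TRM5. TRM11 in the mutant had 2997 and 3132 scaled reads at time point 1, 188 and 182 at 2, 109 and 103 at 3, 118 and 94.2 at 4 and 146 and 171 at 5. The RB libraries of the mutant were all above those of wild type and did not overlap, while its log2 difference in OX was -0.09 at time point 1 and 0.02 at 2, neither called. Its OX to RB change was -4.95 ± 0.16 (SE) in wild type and -2.82 ± 0.16 (SE) in the mutant, a difference of 2.13 ± 0.22 (SE) (limma adjusted p = 8.78e-07). DUS3 in the mutant had 664 and 747 at time point 1, 116 and 139 at 2, 62.6 and 51.3 at 3, 77.3 and 58.7 at 4 and 116 and 97.0 at 5. It was below wild type in both OX time points and above it in both RB time points, with no overlap in any of the 4. The changes were -4.28 ± 0.11 (SE) and -2.26 ± 0.11 (SE), with a difference of 2.02 ± 0.16 (SE) (limma adjusted p = 3.62e-08). TRM5 in the mutant had 209 and 217 at time point 1, 30.9 and 41.2 at 2, 36.8 and 32.7 at 3, 37.5 and 38.8 at 4 and 49.9 and 35.3 at 5. Most of its difference of 1.61 ± 0.22 (SE) (limma adjusted p = 1.49e-05) lay in OX, where the mutant was 2.20-fold lower at time point 1. In RB the counts were low, at 20.4 to 38.8 scaled reads over both genotypes.

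TRM1, TRM2, TRM8, PUS7, PUS1 and TRM13 followed, with differences between 1.02 for TRM13 and 1.33 for TRM1. In mutant cells TRM1 had 1697 and 1865 at time point 1, 377 and 385 at 2, 316 and 327 at 3, 397 and 340.1 at 4 and 474 and 469 at 5. Its late RB libraries overlapped with the mutant's own late OX libraries, while in wild type these time points had 168 and 157 in late RB and 509 and 514 in late OX and did not overlap. TRM2 had 2076 and 2066 at time point 1, 308 and 332 at 2, 243 and 243 at 3, 251 and 234 at 4 and 407 and 409 at 5. In OX and RC the TRM2 difference from wild type was between -0.09 and 0.00 on the log2 scale and not called, and in RB both mutant time points lay above wild type with no overlap. TRM12 was the 1 gene whose difference was negative and called, -0.36 ± 0.11 (SE) (limma adjusted p = 0.0121). The 8 genes not called for this difference were TRM7, TRM112, PUS2, PUS5, PUS6, TAD1, TAD2 and TAD3, and their values ranged from -0.39 for PUS5 to 0.49 for PUS2.

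Set against wild type at each time point, the mutant had more RNA of most of these genes in RB. At time point 3, 19 genes were higher and 0 lower, beside 42.9% of all genes called, 24.8% higher. The median difference was 0.66 on the log2 scale against 0.02 over all genes. At time point 4, 16 genes were higher and 0 lower, beside 46.9% called and 25% higher, with a median of 0.55. Without each library in turn 15 of the 19 calls at time point 3 and 13 of the 16 at time point 4 always held. The authors' deposited table called fewer, with 15 genes higher at time point 3, 12 at time point 4 and 0 lower at either, where that table called 33.5% and 38.4% of all genes in either direction.

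At time point 1 the 12 calls were split, 5 higher and 7 lower, near the background of 49.2%, with a median of -0.13. Only TRM5, PUS1 and DUS3 (lower) and TAD1 (higher) stayed called without each library in turn; 6 calls were left without mutant library 1 and 7 without wild type library 2 of that time point. The wild type libraries of time point 1 are those that differed most from each other. At time point 2, 8 genes were lower and 3 higher, beside 47.3% called, with a median of -0.09. TRM1, TRM5, PUS1 and DUS3 (lower) and TAD1 (higher) held there without each library, and leaving out mutant library 1 or 2 gave 6 and 5 calls, wild type library 1 or 2 gave 6 and 7. At time point 5, in RC, TRM10 (0.37 ± 0.12 (SE), limma adjusted p = 0.0314) and DUS3 (0.44 ± 0.16 (SE), limma adjusted p = 0.0432) were higher and 0 genes lower, beside 29.5% called. Neither call held without each library: leaving out either mutant library of that time point left 0 calls, and leaving out any 1 wild type library of time points 2 to 5 left 1. The authors' deposited table called 0 of the 28 genes there, beside 27.3% of all genes. Averaged over the 5 time points, 16 genes were higher in the mutant and 1 (TRM5) lower, beside 69.6% of all genes called, 37.2% higher and 32.4% lower, with a median of 0.23. The TRM5 value of -0.25 was not called with voom weights (-0.23), with upper-quartile scaling (-0.21) or without time point 1 (-0.03, limma adjusted p = 0.850). It was also lost without any 1 of 9 libraries, at values from -0.24 to -0.20: library 2 of each wild type time point, mutant library 1 of time points 2 and 4, and mutant library 2 of time points 3 and 5.

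**Figure D3:**
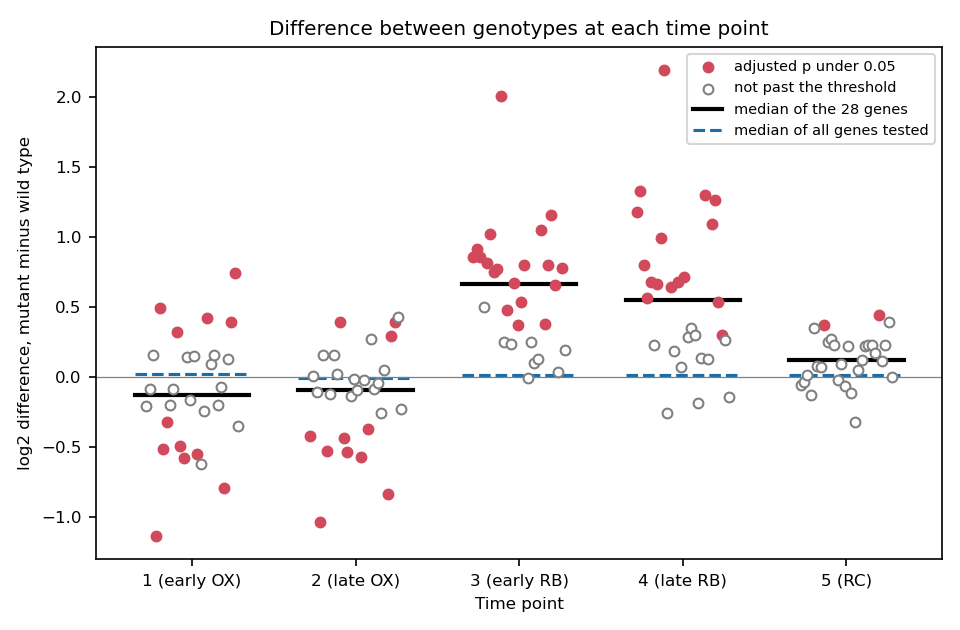
log2 difference between mutant and wild type for the 28 genes at each time point, red where the adjusted p is under 0.05, with the median of the 28 genes (black) and of all genes tested (dashed blue). The black bars stand at 0.66 and 0.55 for time points 3 and 4 and near 0 elsewhere, and the points of time points 1 and 2 spread to both sides.

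Calls of more RNA in mutant RB were unevenly spread over the enzyme classes. At time point 3, 12 of 15 TRM, 3 of 7 PUS, 3 of 3 DUS and 1 of 3 TAD genes were called higher. At time point 4 these counts were 11, 1, 3 and 1. Over all genes 24.8% and 25% were called higher. Among methyltransferase genes TRM11 was 4.01-fold higher in the mutant at time point 3 (limma adjusted p = 2.39e-06) and 4.55-fold at time point 4 (limma adjusted p = 5.43e-07). TRM2 was 1.88-fold and 2.51-fold higher at these points, and TRM1 1.81-fold and 2.26-fold. Among pseudouridine synthase genes PUS7 had 115 and 89.7 scaled reads in wild type and 259 and 244 in mutant libraries of late RB, which is 2.46-fold higher with no overlap (limma adjusted p = 3.68e-07). All 3 dihydrouridine synthase genes were higher at both time points, DUS1 by 0.80 and 1.09 on the log2 scale, DUS3 by 1.16 and 1.26, and DUS4 by 0.65 and 0.53. Of the deaminase genes TAD2 was higher at time point 3 (0.78 ± 0.19 (SE), limma adjusted p = 0.00356), which was not called without mutant library 1 of that time point (0.62), and stood at 0.26, not called, at time point 4. TAD1 stood at 0.03, not called, at time point 3 and was higher at time point 4 (0.30 ± 0.10 (SE), limma adjusted p = 0.0181), a call lost without wild type library 1 (0.25) or mutant library 1 (0.17) of that time point. TAD3 was not called at either, with 0.19 and -0.14. Whether the mutant cycle is of lower amplitude or was sampled at other moments of its course cannot be told apart with these time points.

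Genes whose products work as a pair were compared within the pair. TRM8 and TRM82, catalytic and partner subunit, fell and rose together: in wild type the OX to RB change was -2.92 ± 0.12 (SE) for TRM8 and -3.43 ± 0.10 (SE) for TRM82. In early OX the mutant libraries had 814 and 938 for TRM8, against 1119 and 1400 in wild type, and 1879 and 2009 for TRM82, against 1645 and 1880. The TRM8 libraries did not overlap there and the TRM82 libraries did; the TRM8 call of -0.52 ± 0.18 (SE) was lost without wild type library 2 (-0.36) or mutant library 1 of that time point (-0.42). In early RB both were higher, by 1.02 ± 0.18 (SE) for TRM8 and 0.67 ± 0.13 (SE) for TRM82. TRM112, shared by TRM9 and TRM11, had a milder course, with 830.4 and 1117 scaled reads in wild type early OX and 181 and 205 in early RB. The change of TRM112 from OX to RB was -1.31 ± 0.10 (SE), against -1.82 ± 0.08 (SE) for TRM9 and -4.95 ± 0.16 (SE) for TRM11. Mutant minus wild type, the differences of these changes were 0.31 for TRM112 (not called), 0.93 for TRM9 and 2.13 for TRM11.

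TRM7 and its partner TRM732 both fell from OX to RB in wild type, by -2.24 ± 0.14 (SE) and -1.95 ± 0.07 (SE). The TRM732 difference between genotypes was called (0.59 ± 0.09 (SE), limma adjusted p = 6.35e-05) and that of TRM7 was not (0.42 ± 0.19 (SE), limma adjusted p = 0.0884). TAD2 and TAD3 together make the wobble inosine. TAD2 had 51.1 and 39.1 scaled reads at wild type time point 1, 61.8 and 74.6 at 2, 30.1 and 34.8 at 3, 54.7 and 52.3 at 4 and 43.9 and 37.2 at 5. TAD3 had 160.1 and 172 at time point 1, 72.6 and 67.8 at 2, 52.3 and 62.6 at 3, 68.9 and 66.2 at 4 and 77.0 and 58.5 at 5. Both libraries of early OX were the highest for TAD3, while the highest mean of TAD2 was in late OX. The paralogs PUS1 and PUS2 had an OX to RB change of -3.62 ± 0.09 (SE) for PUS1 and 0.16 ± 0.19 (SE) for PUS2 (limma adjusted p = 0.457). Differences between 2 genes of a pair were not tested.

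**Figure D4:**
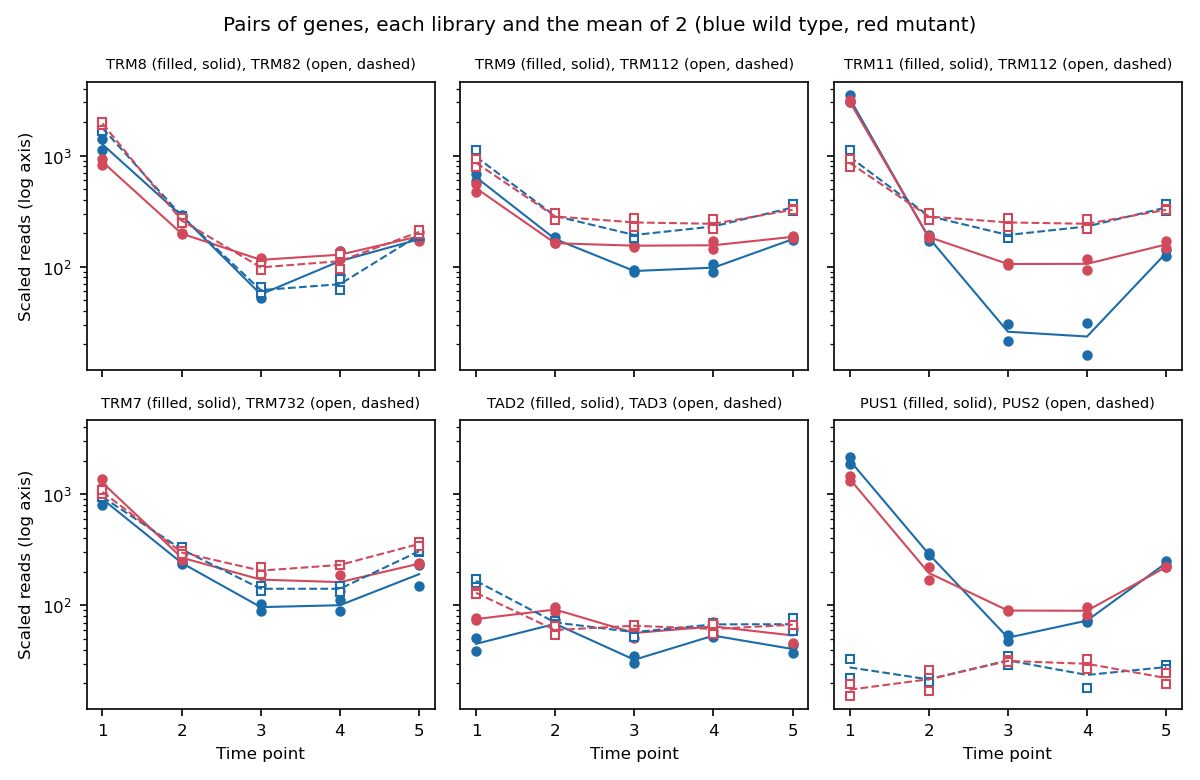
Scaled reads (log axis) at each time point for pairs of genes, points for libraries and lines for means, wild type in blue and mutant in red. TRM8 and TRM82 fall by similar steps, TRM11 falls more steeply than its partner TRM112 into wild type RB and less so in the mutant, and PUS2 stays between 15.3 and 34.8 while PUS1 moves over a wide range.

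The rest of the pathway was read from lists of genes with other names. Of 40 further tRNA modification genes, 33 fell and 4 rose from OX to RB in wild type, beside 41% of all genes called lower and 43.6% higher, with a median of -0.80 against 0.03 over all genes. The genes named here were picked after their values were seen. NCL1, a tRNA cytosine methyltransferase gene, changed by -2.80, KRE33, an acetyltransferase of rRNA and tRNA, by -4.17, GCD10, a subunit of the 1-methyladenosine methyltransferase, by -3.60, and RTT10, the other partner of TRM7, by -3.42. The 4 that rose were MSS1 (0.55), MTO1 (0.47), QRI7 (0.27) and TUM1 (0.19). All 7 Elongator genes, needed for the wobble uridine side chain that TRM9 completes, fell, with a median of -1.12. Of 12 genes for tRNA splicing and end processing 10 fell and 1 rose. All 20 listed cytosolic aminoacyl-tRNA synthetase genes fell, with a median of -1.47. That list does not hold every such gene. The mutant minus wild type difference was called higher for 20 and lower for 1 of the 40 genes, with a median of 0.26. It was called higher for all 20 listed synthetase genes, with a median of 0.53. Over all genes 25.8% were called higher.

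Histone H3 lysine 9 acetylation (H3K9ac), a mark of active gene starts, was available as a profile from wild type cells at time points 3 and 4, with 1 library each, so no test was made. The signal is on the authors' scale, whose normalization and bin size are not given in the sources used here. It was averaged over bins 8 to 15, around the first maximum of the mean profile. These bins are taken to lie near the gene start. Without a bin size their distance from it is not known. At time point 3 the median over the 28 genes was 0.660 against 0.930 over all genes, and at time point 4 it was 0.573 against 0.842. The signal lay below the median of all genes for 22 of the 28 at either time, and 16 of 28 were in the lowest 25%. TRM2 (0.349) and DUS3 (0.355) had the lowest signal at time point 3 and stood at percentiles 1.31 and 1.38 of all genes. PUS1 (0.422), TRM1 (0.452) and TRM11 (0.471) came next. The 3 genes with the highest signal were PUS2 (2.34, percentile 99.6), PUS5 (1.24) and TAD1 (1.15), which are among the genes with the shallowest RNA course.

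Across the 28 genes the H3K9ac signal at time point 3 and the wild type RNA change from OX to RB had a Pearson r of 0.69 and a Spearman rho of 0.74, and without PUS2 they were 0.77 and 0.71. Over all 5877 genes tested the same values were 0.46 and 0.45. These are descriptions across genes, which are not independent and share 1 ChIP library and 8 RNA libraries. From time point 3 to 4 the signal at the start moved by a median of -0.04 for the 28 genes, with 18 lower and 10 higher, against -0.06 for all genes. DUS3 went from 0.355 to 0.544 and TRM44 from 0.770 to 0.494.

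**Figure D5:**
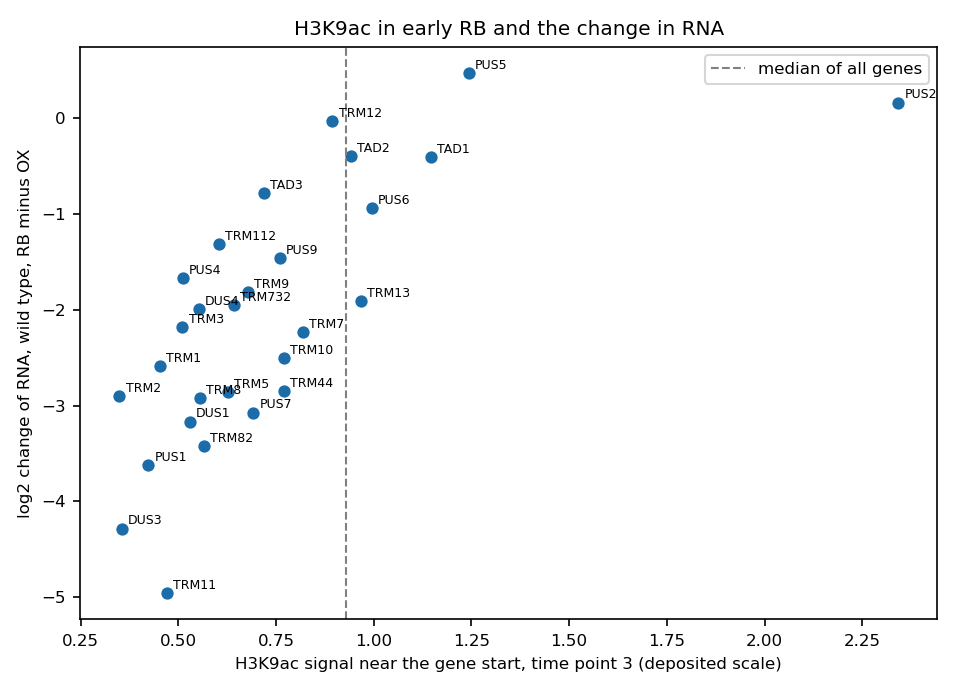
H3K9ac signal near the gene start in wild type early RB (deposited scale) against the wild type log2 change of RNA from OX to RB, 1 point per gene, with the median of all genes dashed at 0.930. TRM2, DUS3, PUS1, TRM1 and TRM11 lie at the lower left, and PUS2, PUS5 and TAD1 to the upper right.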

How the data were processed

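Samples were grouped by genotype and time point from the labels; RNA was total RNA, and 6 ChIP samples (H3K9ac, H3K9cr and H3, wild type) belong to the same series. The authors deposited log2 levels, 1 per group, with log2 fold changes and adjusted p-values of mutant against wild type, per the file headers; tools named in the submitters' processing notes, without roles or versions, were deepTools, MACS2, BWA and DESeq2, with the sacCer3 build. The authors deposited H3K9ac as a binned signal (coverage) per gene, whose last bins were left out because the rows were incomplete after bin 57. H3K9cr and H3 were not analysed here.

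From the log2 levels and RefSeq R64 gene lengths, the whole reads of both libraries were recovered: 94.5% of genes with a RefSeq length gave whole reads in all 10 groups, against 0.661% with shuffled lengths. The lowest recovered value was 1, which is also the lowest that the search allowed. A constant of 1 added before deposit therefore cannot be told apart. The search took only pairs whose scaled reads lay within a ratio of 4 of each other, unless both libraries had few reads. Libraries further apart could not be found. The recovery was also run on reads simulated for genes that had a unique pair at their RefSeq length in all groups. Every unique pair found there matched the simulated reads. That run does not cover genes read at another length, such as TAD3, or libraries without reads. limma 3.58.1 (R 4.3.3) was run on log2 of the scaled reads with a pseudocount of 1, a mean-variance trend and a separate mean for each of 10 groups, and p-values were adjusted by Benjamini-Hochberg within each comparison over 5877 genes; a call is an adjusted p under 0.05. This differs from a test on raw counts: the deposited values are not counts. Of the 5877 genes, 5436 had a unique pair of reads in all 10 groups. For the others, the deposited mean stood in where a group had no unique pair, and that group added nothing to the spread. Fold changes are on that log2 scale, and the pseudocount understates the change of low genes. In the named pairs and the genes given in full, the choice followed a rule: the 3 smallest and 3 largest p of the wild type time test, the 3 largest interaction values, and the partner pairs. The wild type values of TRM12 were given in full outside that rule, because its course differed. The members and lists were chosen with earlier results of these data known. Alternatives were other pseudocounts, filters, scalings, a fit without trend, leaving out each library and time point 1, and voom weights, which were added after the reads had been seen. Sequences are not printed, and promoter motifs were not searched.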

Additional observations from a re-analysis of the deposited data

Results flagged for a closer look

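The change from OX to RB differed between the genotypes (limma test of the difference, adjusted p under 0.05, mutant minus wild type on the log2 scale) for 20 of the 28 genes. The largest differences were 2.13 for TRM11, 2.02 for DUS3, 1.61 for TRM5 and 1.33 for TRM1. Next in size were TRM2 (1.16), TRM8 (1.15), PUS7 (1.12), PUS1 (1.11) and TRM13 (1.02). DUS1 (0.96), TRM9 (0.93), TRM10 (0.90), TRM3 (0.80), TRM44 (0.77) and TRM82 (0.67) followed. The smaller ones were TRM732 (0.59), PUS4 (0.58), PUS9 (0.48) and DUS4 (0.38), and TRM12 alone was negative (-0.36).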

How the results depend on the processing

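Of 11284 values recomputed, 11021 kept their direction and side of the threshold, 173 lost the call, 84 gained it and 6 reversed. The reversals all came from leaving out time point 1, so that OX is time point 2 alone: RB against OX in wild type became 0.0173 for TAD1 and 0.47 for TRM12, and in the mutant 0.0273 for TRM5, 0.0814 for TAD3, 0.0677 for TRM12 and 0.0558 for TRM13. Under that setting 25 genes were called in wild type and 18 in the mutant, with the share of all genes called not given here. Against the 12 calls at time point 1 and the 2 at time point 5, the authors' deposited table gave 5 and 0. Those counts stood beside 14.2% and 27.3% of all genes called by that table. Upper-quartile scaling gave 5 calls at time point 5, with the share of all genes called not given here. That scaling moved the median of all genes from 0.01 to 0.06 for mutant against wild type at time point 5. Within wild type the median of all genes moved from 0.03 to -0.18 for time point 1 against 5. For 2 against 1 it moved from -0.06 to 0.18. The H3K9ac change averaged over bins 1 to 57 was -0.0167 in place of -0.0404. The cause was not tested.

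Without each library in turn, the calls ranged from 24 to 26 for wild type time point 2 against 1, 23 to 24 for 3 against 2, 6 to 10 for 4 against 3, 18 to 23 for 5 against 4 and 25 to 26 for 1 against 5. RB against OX gave 25 to 26 calls in wild type and 27 to 27 in the mutant, the difference 20 to 22, the time tests 27 to 27 and 26 to 27, and the interaction test 17 to 21. Mutant against wild type gave 6 to 13, 5 to 11, 15 to 20, 13 to 18 and 0 to 3 calls at time points 1 to 5, and 16 to 18 for the mean. No paired analysis was possible because the recovered libraries carry no letter. The promoter motif search was not run. Low reads limit PUS2 (from 14 per library), TRM11 (15), TRM5 (23), DUS3 (26) and TAD2 (28) most.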
